A study of Triticum aestivum with 4 samples.

Results

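The serpin genes of the wheat grain were compared between 2 genotypes of *Triticum aestivum*, RL4452 and Domain, which were crossed to make a mapping population. The members were every probe set whose gene has a symbol or synonym containing serpin or WSZ in the array's annotation or in the RefSeq gene table. The rule found 5 probe sets of 4 genes among 61179 tested probe sets. Probe sets that share a transcript-cluster prefix with them were to be given separately, and there were 0. The table names 4 serpin genes in all, and each had at least 1 probe set.

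The RL4452 group held 2 arrays and the Domain group held 2 arrays, in both cases biological replicates numbered 1 and 3. Both parents were grown as field rows at the location SB, with no treatment named, and whole developing seed was taken 5 days after anthesis, so all arrays share the stage and the tissue. Messenger RNA was hybridised to an Affymetrix wheat array, on which each transcript is read by 1 or more probe sets. Whole seed mixes endosperm, embryo and maternal layers, and in such a sample fewer cells of a type and less RNA per cell cannot be told apart.

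Serpins are proteins that trap serine proteases. The target protease cuts an exposed loop of the serpin, the reactive centre, and is then locked to it in an inactive complex. In cereals some serpins accumulate as abundant albumins of the starchy endosperm during grain filling, among them the wheat Z family and its barley counterpart, protein Z, and several wheat members carry glutamine-rich reactive centres that resemble the repeats of prolamin storage proteins. The 4 genes fall by name into the Z1 type, with WSZ1b (LOC100037548, also SER1, SER3 and WZS2) and WSZ1c (LOC542985), and the Z2 type, with WSZ2a (LOC543376) and WSZ2b (LOC543382, also WZS3). In the gene order of the wheat reference assembly (IWGSC CS RefSeq v2.1), WSZ1b and WSZ2b lie on the same chromosome with 751 annotated genes between them, and no other pair of the 4 shares a chromosome.

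The deposited values are linear ratios in which 1 stands for the median of that probe set in these 4 arrays. Differences between arrays are kept, while levels of different serpins cannot be ranked. Suffixes of the probe set IDs tell how specific the probes are in the array maker's scheme: _at probe sets are designed for 1 transcript, _s_at probe sets match several related transcripts, and _x_at probe sets hold probes that can cross-hybridise. WSZ1b had an _at and an _s_at probe set, WSZ2a had only an _x_at one, and WSZ1c and WSZ2b each had an _at one. Signal from a homoeologous or paralogous serpin in the _s_at and _x_at probe sets cannot be told apart from the named gene. No probe sequences were compared, so such signal in the _at probe sets was not checked.

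No serpin probe set differed between RL4452 and Domain beyond the spread of the arrays. Of the 5, 0 passed the threshold (limma, Benjamini-Hochberg adjusted p under 0.05 over all tested probe sets), and 0 had an unadjusted p under 0.05. Over all tested probe sets 0.28% passed, 0.129% higher and 0.15% lower in RL4452, and 5.85% had an unadjusted p under 0.05. With Domain replicate 1 left out limma called 0 probe sets on the whole array (3292 at an unadjusted p under 0.05), and with Domain replicate 3 left out also 0 (3418 at an unadjusted p under 0.05). The smallest called difference over all probe sets was 1.87 on the log2 scale, larger than any serpin difference. With 2 arrays per genotype, no probe set with a difference of the size seen here was called, so the absent calls do not show equal levels. The value 1.87 is not a detection limit, since a call also depends on the spread of each probe set. Serpin differences, RL4452 minus Domain on the log2 scale, ran from -0.84 to 0.10 with a median of -0.089, and 4 of the 5 were below 0. That tally rested on single arrays: with Domain replicate 3 left out 2 of 5 were below 0 and the median was 0.0014, and with Domain replicate 1 left out 5 of 5 were below 0 and the median was -0.32. Leaving out RL4452 replicate 1 gave 3 of 5 and -0.021, and leaving out RL4452 replicate 3 gave 4 of 5 and -0.29. Over all tested probe sets the median difference was 0.010, and 48% were below 0.

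WSZ1b, read by its _s_at probe set, showed the widest spread of the family. Its ratios were 0.946 and 0.902 in RL4452 replicates 1 and 3, against 1.054 and 2.59 in Domain replicates 1 and 3. Both RL4452 arrays lay below both Domain arrays, but 3 of the 4 arrays were close together and Domain replicate 3 alone stood high. On the log2 scale the level averaged -0.11 ± 0.049 in RL4452 and 0.72 ± 0.92 in Domain (SD, n = 2 each). The difference was -0.84 with SE 0.44 and a 95% interval of -1.98 to 0.30 (limma adjusted p = 0.944), so the interval reaches from 3.95-fold lower to 1.23-fold higher in RL4452. The difference was -0.19 when Domain replicate 3 was left out and -1.49 when Domain replicate 1 was.

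The _at probe set of WSZ1b gave another picture of the same gene. Its ratios were 0.810 and 1.19 in RL4452 replicates 1 and 3, against 0.800 and 1.228 in Domain replicates 1 and 3. The genotypes overlapped almost completely, and both replicates numbered 3 were above both replicates numbered 1. The difference was -0.014 with SE 0.31 and a 95% interval of -0.82 to 0.79 (limma adjusted p = 1), and it ran from -0.32 to 0.30 as each array was left out. The 2 probe sets had a root mean square difference of 0.62 over the 4 arrays, while the median over 191 other listed genes with exactly 2 probe sets was 0.29. Among those genes 14.7% had a pair at least that far apart. The genotype difference of WSZ1b, -0.84 or -0.014, thus depended on which probe set was read.

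WSZ2b, a Z2-type serpin, resembled the _s_at probe set of WSZ1b in which array was high. Its ratios were 0.907 and 0.995 in RL4452 replicates 1 and 3, against 1.005 and 1.446 in Domain replicates 1 and 3. Both RL4452 arrays were below both Domain arrays, by a narrow margin for RL4452 replicate 3 and Domain replicate 1. Log2 levels averaged -0.074 ± 0.094 in RL4452 and 0.27 ± 0.37 in Domain (SD, n = 2 each), with a difference of -0.34, SE 0.24 and a 95% interval of -0.96 to 0.28 (limma adjusted p = 0.969). Leaving out Domain replicate 3 gave -0.081, and leaving out Domain replicate 1 gave -0.61.

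The remaining Z1-type and Z2-type genes were nearly flat. WSZ1c had ratios of 0.984 and 1.033 in RL4452 replicates 1 and 3, against 0.870 and 1.016 in Domain replicates 1 and 3. Its genotypes overlapped, with a difference of 0.10, SE 0.19 and a 95% interval of -0.38 to 0.58 (limma adjusted p = 1), which became -0.011 when Domain replicate 1 was left out. WSZ2a had ratios of 0.932 and 1.024 in RL4452 replicates 1 and 3, against 0.976 and 1.106 in Domain replicates 1 and 3. Its genotypes overlapped too, with a difference of -0.089, SE 0.18 and a 95% interval of -0.56 to 0.38 (limma adjusted p = 1), which became 0.0014 when Domain replicate 3 was left out. In fold terms the intervals reach from 1.30-fold lower to 1.49-fold higher in RL4452 for WSZ1c and from 1.48-fold lower to 1.31-fold higher for WSZ2a. From the lowest to the highest array both genes spanned 0.25 log2 units, against a median of 0.50 over all tested probe sets. Ratios hold no signal over background, so a steady level cannot be told apart from a transcript too low to be read.

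**Figure D1:**
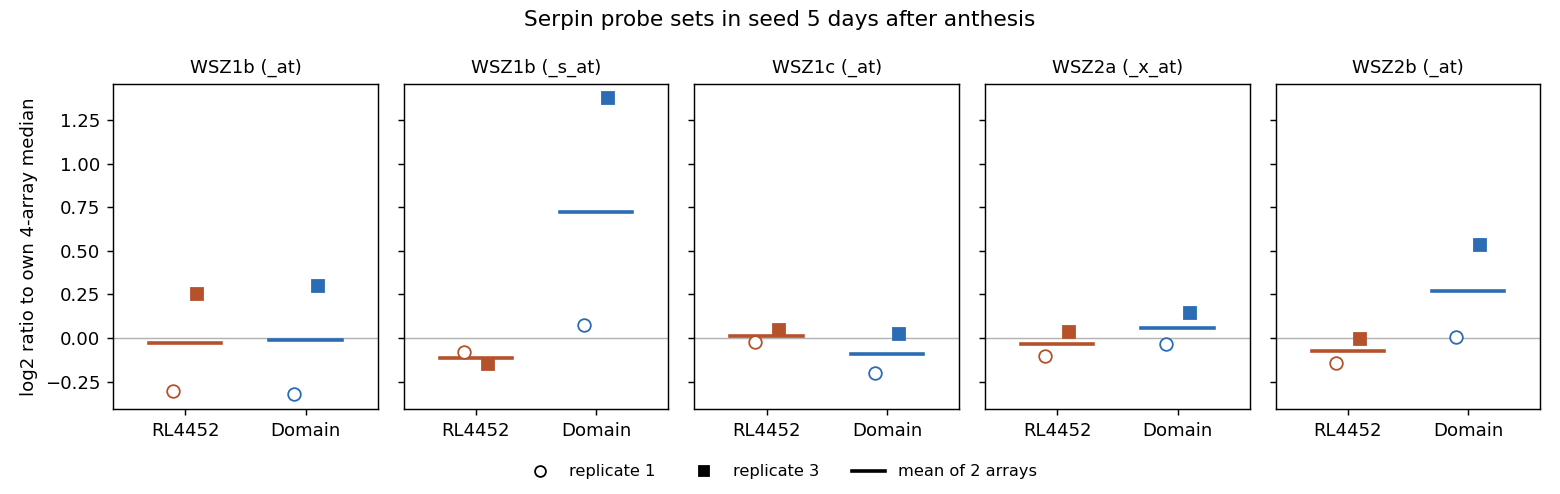
Log2 ratio to the probe set's own 4-array median (vertical axis) for the 5 serpin probe sets, RL4452 left and Domain right, with open circles for replicate 1, filled squares for replicate 3 and a bar for the mean of 2 arrays. The _s_at probe set of WSZ1b reaches 1.37 in Domain replicate 3, while its other arrays lie between -0.15 and 0.076.

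Across the family, 2 of 5 probe sets had all RL4452 arrays below all Domain arrays, the _s_at one of WSZ1b and that of WSZ2b. Over all tested probe sets 15.5% did so in that direction, and 32.4% did not overlap in either direction. The other 3 overlapped, and 0 serpins had all RL4452 arrays above all Domain arrays, against 17% of all tested probe sets. With 5 probe sets of 4 related genes, some with shared probes, these counts are a description only.

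**Figure D2:**
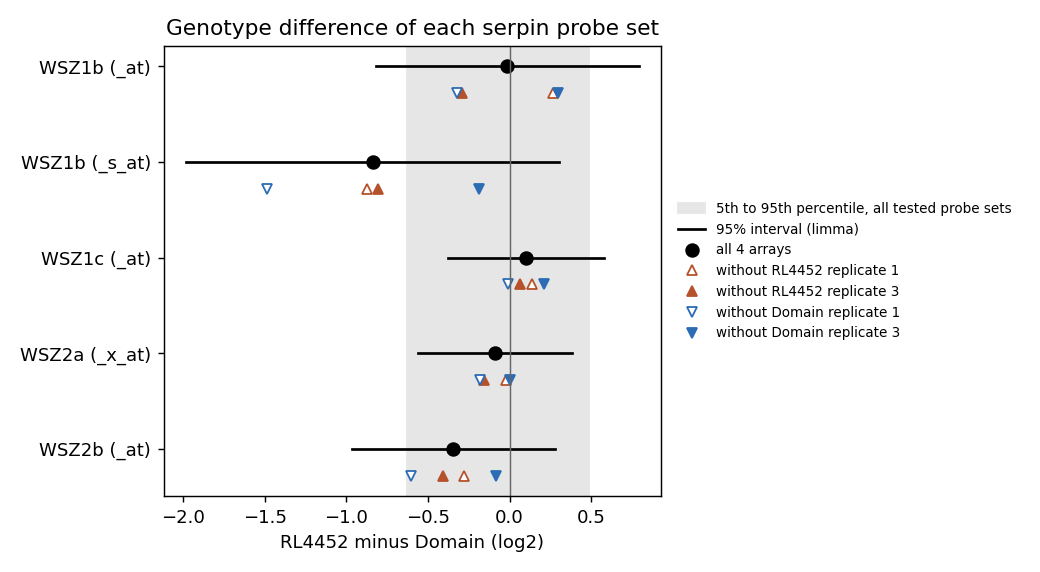
RL4452 minus Domain on the log2 scale (horizontal axis) for each serpin probe set, with the 95% limma interval over all 4 arrays and, below it, the value without each array in turn; the grey band spans the 5th to 95th percentile of all tested probe sets, -0.63 to 0.49. All 5 intervals include 0, and the _s_at probe set of WSZ1b moves between -1.49 and -0.19 as an array is left out.

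Serpin values also differed between replicates of 1 genotype. Replicate 3 exceeded replicate 1 in 4 of 5 serpin probe sets in RL4452 and in 5 of 5 in Domain, and in 4 of 5 it did so in both genotypes. Over all tested probe sets the shares were 52.3% in RL4452, 54.3% in Domain and 32.1% in both. The serpin median of replicate 3 minus replicate 1 was 0.13 in RL4452 and 0.52 in Domain on the log2 scale, against 0.021 and 0.037 over all tested probe sets. In the _at probe set of WSZ1b this gap was 0.55 in RL4452 and 0.62 in Domain, far wider than its genotype difference. Gaps as large were seen in 17.9% of all tested probe sets in RL4452 and in 11.9% in Domain. In the _s_at probe set the gap was -0.069 in RL4452 and 1.30 in Domain. A gap as large in Domain was seen in 1.61% of all tested probe sets. For WSZ1c, WSZ2a and WSZ2b such shares were 83%, 68.5% and 69% in RL4452, and 52.2%, 60.3% and 17.2% in Domain. Both replicates numbered 1 were hybridised before both replicates numbered 3, each array on its own day per the file headers, so replicate and hybridization time cannot be told apart.

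Domain replicate 3 was the highest array for 4 of the 5 serpin probe sets, WSZ1c being the exception, against 25.1% of all tested probe sets. The serpin median was -0.10 and 0.034 in RL4452 replicates 1 and 3, against -0.035 and 0.30 in Domain replicates 1 and 3. The corresponding medians over all tested probe sets lay between -0.019 and 0.010, and Domain replicate 3 was at 0.010. In the _s_at probe set of WSZ1b the array exceeded the next highest by 1.30 log2 units, and 0.16% of all tested probe sets stood out there by as much. For WSZ2b the margin was 0.52, matched by 1.44% of all tested probe sets. The other margins were small: 0.11 for WSZ2a, matched by 14.2%, and 0.045 for the _at probe set of WSZ1b, matched by 20.1%.

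Most probe sets of the endosperm marker list had their highest value in the same array. The list held 12 probe sets of 7 genes, gliadins, low-molecular-weight glutenins and the granule-bound starch synthase Wx-A1, with 0 called higher and 0 called lower in limma and 1 at an unadjusted p under 0.05. That one, Wx-A1, ran the other way: it averaged 0.74 ± 0.11 in RL4452 and -1.64 ± 0.51 in Domain on the log2 scale (SD, n = 2 each), with -1.28 and -2.0 in Domain replicates 1 and 3 and a difference of 2.39 (limma adjusted p = 0.0992). Of the 12, 10 had their highest value in Domain replicate 3, where the whole list ranged from -2.0 for Wx-A1 to 4.05 for a gamma-gliadin probe set (LOC543214). Their median was -0.0043 and -0.028 in RL4452 replicates 1 and 3, against -0.030 and 0.49 in Domain replicates 1 and 3. Several probe sets of the endosperm list share a gene or carry the _x_at suffix, so they are not independent readings. Puroindolines had no probe set under the names searched. The part of these storage protein transcripts in the serpin values was not tested.

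The embryo and photosynthesis lists did not have their highest median in Domain replicate 3, though single probe sets stood high there. The 7 embryo and late embryo probe sets (Em, LEA and COR410 genes) had medians of -0.11 and 0.14 in RL4452 replicates 1 and 3, against -0.15 and 0.099 in Domain replicates 1 and 3. Of these, 3 were highest in Domain replicate 3, where the list ranged from -0.014 to 0.49. The embryo median was higher in replicate 3 than in replicate 1 in both genotypes, as was the serpin median. Ratios do not show whether these transcripts were detected, so the list cannot show an unchanged share of embryo. The 31 photosynthesis probe sets, most of them of rbcL, had medians between -0.034 and 0.0029 in the 4 arrays. Of these, 8 were highest in Domain replicate 3, where the list ranged from -0.28 to 0.72. Over all tested probe sets 25.1% were highest in that array. Limma called 0 of either list in either direction, and at an unadjusted p under 0.05 it had 0 of the embryo list and 1 of the photosynthesis list, an rbcL probe set. The wheat control transcripts, here only a relative measure of RNA integrity, had a median 3′ minus 5′ log2 difference of -0.22 and 0.40 in RL4452 replicates 1 and 3, against 0.00 and -0.0023 in Domain replicates 1 and 3, over 7 probe set pairs. Each control ratio is also relative to its own median over the 4 arrays, so a value near 0 does not show equal 3′ and 5′ signal. The array that stood apart in this measure was RL4452 replicate 3.

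**Figure D3:**
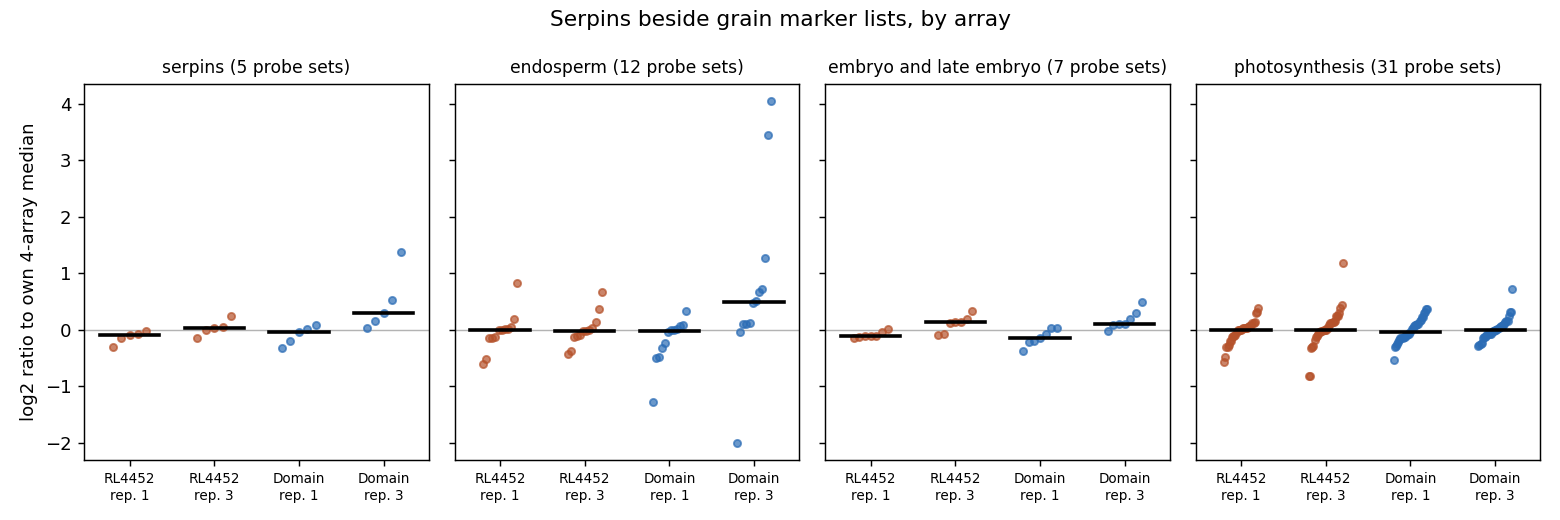
Log2 ratio to the probe set's own 4-array median (vertical axis) in each array for the serpins and for lists of endosperm, embryo and photosynthesis markers; points are probe sets and bars are list medians. The serpin and endosperm medians are highest in Domain replicate 3, at 0.30 and 0.49, while the photosynthesis medians stay near 0 in all 4 arrays.

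Fluidics module 2 served RL4452 replicate 1 and Domain replicate 3, the only module shared by both genotypes. Within it the serpin differences, RL4452 minus Domain, were -1.45 for the _s_at probe set of WSZ1b, -0.60 for its _at probe set, -0.67 for WSZ2b, -0.25 for WSZ2a and -0.046 for WSZ1c, with a median of -0.60 and 1 array per genotype. These values set the array with the highest serpin median against the one with the lowest, so they carry no test.

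Profiles of the family members were compared over the 4 arrays by their root mean square log2 difference. The closest of the 10 pairs was WSZ1c with WSZ2a at 0.11, both of them flat, and the next was WSZ2a with WSZ2b at 0.20. The _s_at probe set of WSZ1b was nearer to WSZ2b, at 0.43, than to the other probe set of its own gene. The widest pair was that _s_at probe set with WSZ1c, at 0.70.

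Among genes with a readable name, which had 200 probe sets, the 3 nearest to each serpin were sought by the same measure. For WSZ2b these were the gliadin gene LOC543385 at 0.058, the raftin gene raftin1b (LOC543009) at 0.085 and the low-molecular-weight glutenin gene LOC543213 at 0.099. That gliadin probe set had log2 values of -0.14 and -0.089 in RL4452 replicates 1 and 3 and 0.084 and 0.50 in Domain replicates 1 and 3, the same order of arrays as WSZ2b. Of all tested probe sets 113 were as near as that gliadin, 405 as near as raftin1b and 649 as near as the glutenin. For the mean profile of WSZ1b the nearest were an rbcL probe set (LOC100049018) at 0.081, the gamma-gliadin gene LOC543214 at 0.12 and the glutenin gene LOC543213 at 0.15, with 36, 143 and 278 of all tested probe sets as near. That mean joins the _at and _s_at probe sets of WSZ1b, which differed by 0.62, so it need not describe either of them. The flat genes had many equals. For WSZ1c the nearest were LOC543415 (IVR1) at 0.047, an rbcL probe set and the histone gene wcH2B-8 (LOC543184), both at 0.050, and for WSZ2a the beta-tubulin gene tubb1 (LOC543257) at 0.046, Rab15 (LOC543293) at 0.055 and an rbcL probe set at 0.064, with between 780 and 2024 of all tested probe sets as near.

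Of the list of other protease inhibitors, proteases and beta-amylase, 1 gene was found under the names searched, the beta-amylase gene BMY1 (LOC543318). The names covered subtilisin, chymotrypsin and Bowman-Birk inhibitors, cystatins, carboxypeptidases, cysteine, subtilisin-type and aspartic proteases, and beta-amylase. Alpha-amylase/trypsin inhibitors were not among them, so the list does not cover every inhibitor on the array. Beta-amylase releases maltose from starch, and in barley grain part of it is bound to protein Z. BMY1 had log2 values of -0.062 and -0.64 in RL4452 replicates 1 and 3, against 0.18 and 0.059 in Domain replicates 1 and 3. Both RL4452 arrays were below both Domain arrays, with a difference of -0.47, SE 0.25 and a 95% interval of -1.12 to 0.18 (limma adjusted p = 0.947). Its highest array was Domain replicate 1.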

How the data were processed

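The authors deposited linear ratios. Per the submitters' processing notes RMA was used, with its version and any later step not given in the sources used here. Ratios were log2-transformed, and the 111 AFFX controls were left out of the tests. RL4452 was compared with Domain on 61179 probe sets with limma 3.58.1 in R 4.3.3 (lmFit, eBayes, genotype as the only term, two-sided, 2 arrays each), with 2 residual and 2.99 prior degrees of freedom and Benjamini-Hochberg adjustment over all of them. Intervals are limma's 95% intervals. The fit was tested on simulated data.

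Gene names were taken from the array's annotation and updated with the RefSeq gene table. A gene was listed for 1273 probe sets (770 of 771 genes found in the table), and 200 probe sets had a readable name. From the assembly only gene order and shared chromosomes were used, and no sequences. Every serpin probe set is named, with the list of inhibitor, protease and beta-amylase genes and the 3 nearest readable genes per serpin gene. Short names were matched as whole names. The members and lists were chosen with earlier results of these data known. Ratios hold no signal over background, and precision is limited by the number of arrays. The alternatives were other normalizations, each array left out, a replicate block, a robust prior, the fluidics module, shared probes and 1 value per gene. Tables and figures used Python 3.11.15, pandas 2.3.3, numpy 2.4.6 and matplotlib 3.10.9.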

Additional observations from a re-analysis of the deposited data

How the results depend on the processing

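No serpin probe set passed the threshold in any of the fits run, and the lowest limma adjusted p was 0.441, for the _s_at probe set of WSZ1b without Domain replicate 1. Of 45 serpin values under alternatives 5 changed sign, all of them with an array left out or within the shared fluidics module. The replicate block and the robust prior leave the difference itself unchanged, so no sign could change there. With each array left out in turn the difference ran from -0.32 to 0.30 for the _at probe set of WSZ1b, from -0.011 to 0.21 for WSZ1c and from -0.18 to 0.0014 for WSZ2a, and WSZ1c was at -0.046 within the shared fluidics module. The differences of WSZ2b and of the _s_at probe set of WSZ1b stayed below 0 in all of these. That was fixed in advance, since both RL4452 arrays lay below both Domain arrays, so it is no sign of stability. The serpin median of -0.089 ran from -0.32 (without Domain replicate 1) to 0.0014 (without Domain replicate 3). It was -0.60 within the module and -0.014 over the 3 probe sets with the _at suffix. With 1 value per gene it was -0.22, and after quantile normalization -0.12. Over all probe sets limma called 171, and with arrays left out 0 to 128 (0 without either Domain array, 101 without RL4452 replicate 1, 128 without RL4452 replicate 3), where a single array was taken to vary as those of the other genotype do. With a replicate block it called 0 (4555 at an unadjusted p under 0.05). The labels do not say that the numbers pair samples, and the replicate differences of the genotypes correlated at 0.143 across probe sets. No probe set shared a transcript-cluster prefix, so the alternatives planned for such probe sets had no value. The cause of these changes was not tested.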
